A study of Mus musculus with 130 samples.

Results

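The H3K9 demethylases are enzymes that take methyl groups off lysine 9 of histone H3, and 9 of their genes were followed here: Kdm1a, Kdm3a, Kdm3b, Kdm4a, Kdm4b, Kdm4c, Kdm4d, Phf8 and Kdm7a. They were chosen by gene symbol and not by a rule on their values, although earlier results of these data were known. All 9 were found among the 52550 genes of the tables. The series has 130 samples, of which the 10 RNA-seq libraries, all of mouse embryonic stem cells, were used. WT TT2 is the wild-type line of strain C57BL/6xCBA. G9a CM (clone G7) is of the same strain, lacks G9a and carries a G9a transgene with the changes Y1120V and Y1207F. G9a/GLP DKO (clone 248-6) lacks G9a and GLP, the enzymes that place mono- and dimethyl marks on H3K9. WT J1 is the wild-type line of strain 129S4/SvJae. Dnmt3a/3b DKO lacks both de novo DNA methyltransferases and Dnmt1/3a/3b TKO lacks the maintenance enzyme as well. The remaining libraries are wild-type TT2 cells given UNC0638, an inhibitor of G9a and GLP, and collected on day 2, 4 or 14, with 1 control given the solvent DMSO (the inhibitor control). Titles state a dose of 250 nM, whereas 250 µM is written in the protocol for treatment. Neither the day of the control nor renewal of the drug up to day 14 is stated. All cells were grown with serum and leukaemia inhibitory factor.

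Each group had 1 library, so no spread between replicates, no SD and no test could be had, and a clone stands for its genotype. Every interval below is an exact 95% interval that covers counting error only, and since the reads carry no molecular identifiers they are not independent copies. Libraries held 11436808 to 25609600 counts. A level is given as CPM (counts scaled to the library's effective size by TMM) within 1 gene across libraries, and as the deposited TPM, which corrects for length, between genes. A gene was called higher or lower when log2(CPM + 1) differed by at least 1, CPM was at least 1 in either library and the interval of the count ratio excluded 1. In bulk RNA, fewer cells of a type and less RNA per cell cannot be told apart. All 9 embryonic stem cell markers were at 1 TPM or more in every library, and the 7 fibroblast markers summed to 2.04 to 6.44 TPM. Ehmt1, which encodes GLP, stood at 7.95 CPM in G9a/GLP DKO against 38.3 in WT TT2. Ehmt2, which encodes G9a, was not lower in that library (17.9 against 14.6 CPM), and gene counts cannot show whether its reads come from the part left after deletion, so G9a/GLP DKO is a label here. The double and triple Dnmt mutants had 4.30 and 4.76 CPM of Dnmt3a against 17.4 in WT J1 and 3.05 and 2.68 of Dnmt3b against 26.9, and Dnmt1 stood at 6.35 CPM in the triple mutant against 46.6.

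Histone lysine demethylases use either of a pair of chemistries. Kdm1a, also called LSD1, is a flavin-dependent amine oxidase that acts on mono- and dimethyl lysine, works with the CoREST corepressor, and is best known for H3K4, with H3K9 reported in some settings. The other 8 carry a JmjC domain and need iron, oxygen and 2-oxoglutarate. The Kdm3 enzymes remove mono- and dimethyl H3K9. The Kdm4 enzymes remove di- and trimethyl H3K9, and Kdm4a, Kdm4b and Kdm4c also act on H3K36. Phf8 and Kdm7a bind trimethyl H3K4 through a PHD finger while demethylating dimethyl H3K9 and other sites. Kdm3a, Kdm4b and Kdm4c are known to be induced by low oxygen. In mouse embryonic stem cells Kdm3a and Kdm4c have been described as targets of Pou5f1 that maintain pluripotency genes, and Kdm4d is known chiefly from the testis.

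Start-site windows from RefSeq (GRCm38.p6) were examined for 7 of the 9 genes, 10 windows in all with alternative starts. The 250 bases before 4 of these starts are printed because the calls in the mutants fall on Kdm1a and Kdm3a, because Kdm4c has the largest difference short of a call between a mutant and its wild type, and because Kdm4d is the gene with almost no reads. They are chr4:136602724-136602973 (Kdm1a, minus strand), chr6:71632918-71633167 (Kdm3a, the most upstream of 3 starts, minus strand), chr4:74251629-74251878 (Kdm4c, the downstream of 2 starts, plus strand) and chr9:14500483-14500732 (Kdm4d, minus strand). Capitals mark matches on either strand to any of 7 motifs. The core of the hypoxia response element was searched as ACGTG. The E-box was searched as CACGTG, which holds that core on both strands. The CCAAT box is named for its letters. The GC box, which Sp1 binds, was searched as GGGCGG. The motif of the ETS family of factors was searched as CCGGAAG. The cyclic AMP response element was searched as TGACGTCA, and a longer YY1 motif is given by name alone.
Kdm1a: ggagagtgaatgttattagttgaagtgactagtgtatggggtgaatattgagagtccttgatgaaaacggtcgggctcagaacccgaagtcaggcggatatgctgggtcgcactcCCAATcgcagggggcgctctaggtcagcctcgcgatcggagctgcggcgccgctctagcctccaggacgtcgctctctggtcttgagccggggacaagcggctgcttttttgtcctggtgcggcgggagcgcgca
Kdm3a: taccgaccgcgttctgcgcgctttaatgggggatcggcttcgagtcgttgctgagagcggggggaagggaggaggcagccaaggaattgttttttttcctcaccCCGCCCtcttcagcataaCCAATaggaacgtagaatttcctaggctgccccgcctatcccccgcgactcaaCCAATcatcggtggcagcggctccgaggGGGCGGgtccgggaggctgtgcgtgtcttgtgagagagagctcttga
Kdm4c: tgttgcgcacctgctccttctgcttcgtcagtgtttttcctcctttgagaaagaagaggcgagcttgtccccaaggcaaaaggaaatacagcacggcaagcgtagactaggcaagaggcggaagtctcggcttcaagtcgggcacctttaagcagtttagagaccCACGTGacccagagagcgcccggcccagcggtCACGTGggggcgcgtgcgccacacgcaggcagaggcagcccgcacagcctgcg
Kdm4d: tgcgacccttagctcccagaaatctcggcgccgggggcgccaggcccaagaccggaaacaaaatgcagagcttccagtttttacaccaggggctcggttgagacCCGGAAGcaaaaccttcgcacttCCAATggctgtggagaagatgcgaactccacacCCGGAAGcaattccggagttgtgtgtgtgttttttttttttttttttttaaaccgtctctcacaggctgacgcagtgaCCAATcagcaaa

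The capitals differ from gene to gene. The Kdm1a window held 1 CCAAT box, 135 to 131 bases before the start, and none of the other motifs. The Kdm3a window held 2 CCAAT boxes and 2 GC boxes. Its next start had 4 GC boxes and 1 ETS motif, and the third, at 48.4% GC with 0 CG pairs, had no match. The Kdm4c window held 2 E-boxes, at 85 to 80 and 53 to 48 bases before the start, so that its 4 matches to the hypoxia core are those same letters, and the window of its upstream start, at 39.6% GC, had no match. The Kdm4d window held 2 CCAAT boxes and 2 ETS motifs. Among the windows not printed, Phf8 held the hypoxia core, the CCAAT box, the GC box, the cyclic AMP element and the YY1 motif once each, Kdm7a held the hypoxia core once beside 3 GC boxes and 1 ETS motif at 82.0% GC, and Kdm4a held 1 CCAAT box. Of all 32851 windows of this length, 16.6% held the hypoxia core, 6.02% the E-box, 33.8% the CCAAT box, 32.7% the GC box, 6.91% the ETS motif, 1.55% the cyclic AMP element and 0.207% the YY1 motif. A match is a run of letters and not a measured binding site.

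Per length, Kdm1a and Kdm3a led the family in all 6 mutant and wild-type lines, and Kdm4b stood higher in rank in the inhibitor series (2 or 3 of 9) than in the 6 lines (6 or 7 of 9). In the 6 lines the TPM order was Kdm1a, Kdm3a, Kdm4c, Kdm3b and Phf8, followed by Kdm4b and Kdm7a and then by Kdm4a and Kdm4d. Kdm1a held 41.6% to 54.1% of the summed TPM of the 9 genes there. In the inhibitor series it held 12.4% to 16.8%, and ranked 4 of 9. Kdm3a was the highest in the inhibitor control (19.7 TPM), on day 4 (19.9 TPM) and on day 14 (22.7 TPM), and Kdm4c was the highest on day 2 (28.1 TPM). Kdm4b held 7.34% to 14.9% of the summed Kdm4 TPM in the 6 lines and 43.8% to 50.6% in the inhibitor series.

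Some neighbours in this order did not differ beyond counting error. The intervals of Kdm3a and Kdm4c overlapped in WT J1 (10.9 and 10.8 TPM). Those of Kdm4b and Kdm7a overlapped in G9a/GLP DKO, WT J1 and Dnmt1/3a/3b TKO, and those of Phf8 and Kdm4b in G9a CM. In the inhibitor series Kdm4b and Kdm4c were neighbours that overlapped in the control, on day 4 and on day 14. On day 2 Kdm3a lay between them at 26.6 TPM and overlapped both. The summed TPM of the 9 genes ran from 54.9 in WT J1 and 70.1 in WT TT2 to 94.0 in G9a CM, 104 in Dnmt1/3a/3b TKO, 118 in G9a/GLP DKO and 137 in Dnmt3a/3b DKO. It was 59.9 in the inhibitor control, 105 on day 2, 58.9 on day 4 and 68.4 on day 14.

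**Figure D1:**
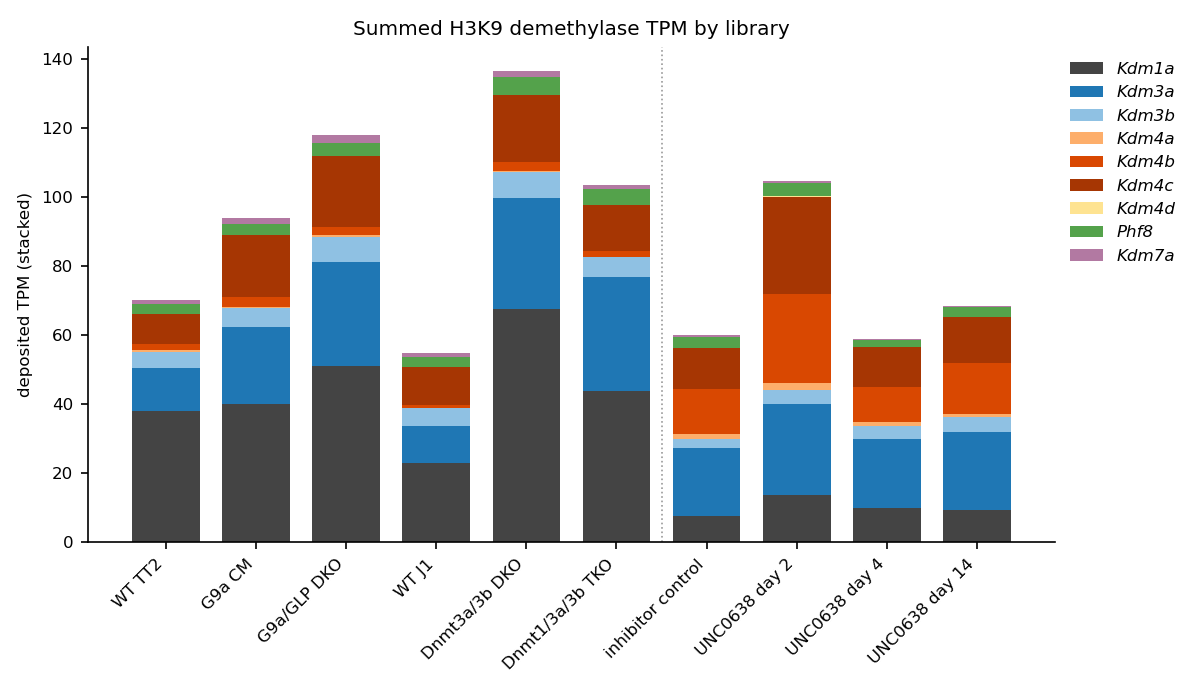
Deposited TPM of the 9 H3K9 demethylase genes stacked by library (y axis, TPM; x axis, the 10 libraries, 1 per group; the dotted line parts the 6 mutant and wild-type lines from the 4 inhibitor-series libraries). Kdm1a is the largest band in the 6 lines and 12.4% to 16.8% of the stack in the inhibitor series, where the Kdm4b band is wide.

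Over 13 comparisons between libraries, 8 of the 9 genes were measured in each and made 7 calls among 104 measured pairs of gene and comparison, 4 higher and 3 lower. Over all genes, 13.1% of 176188 such pairs were called, and the comparisons share libraries. Kdm3a was called in 2 comparisons, Kdm1a in 2, and Kdm3b, Kdm4b and Kdm7a in 1 each. Kdm4a, Kdm4c and Phf8 were called in none. Kdm4d never reached 1 CPM.

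**Figure D2:**
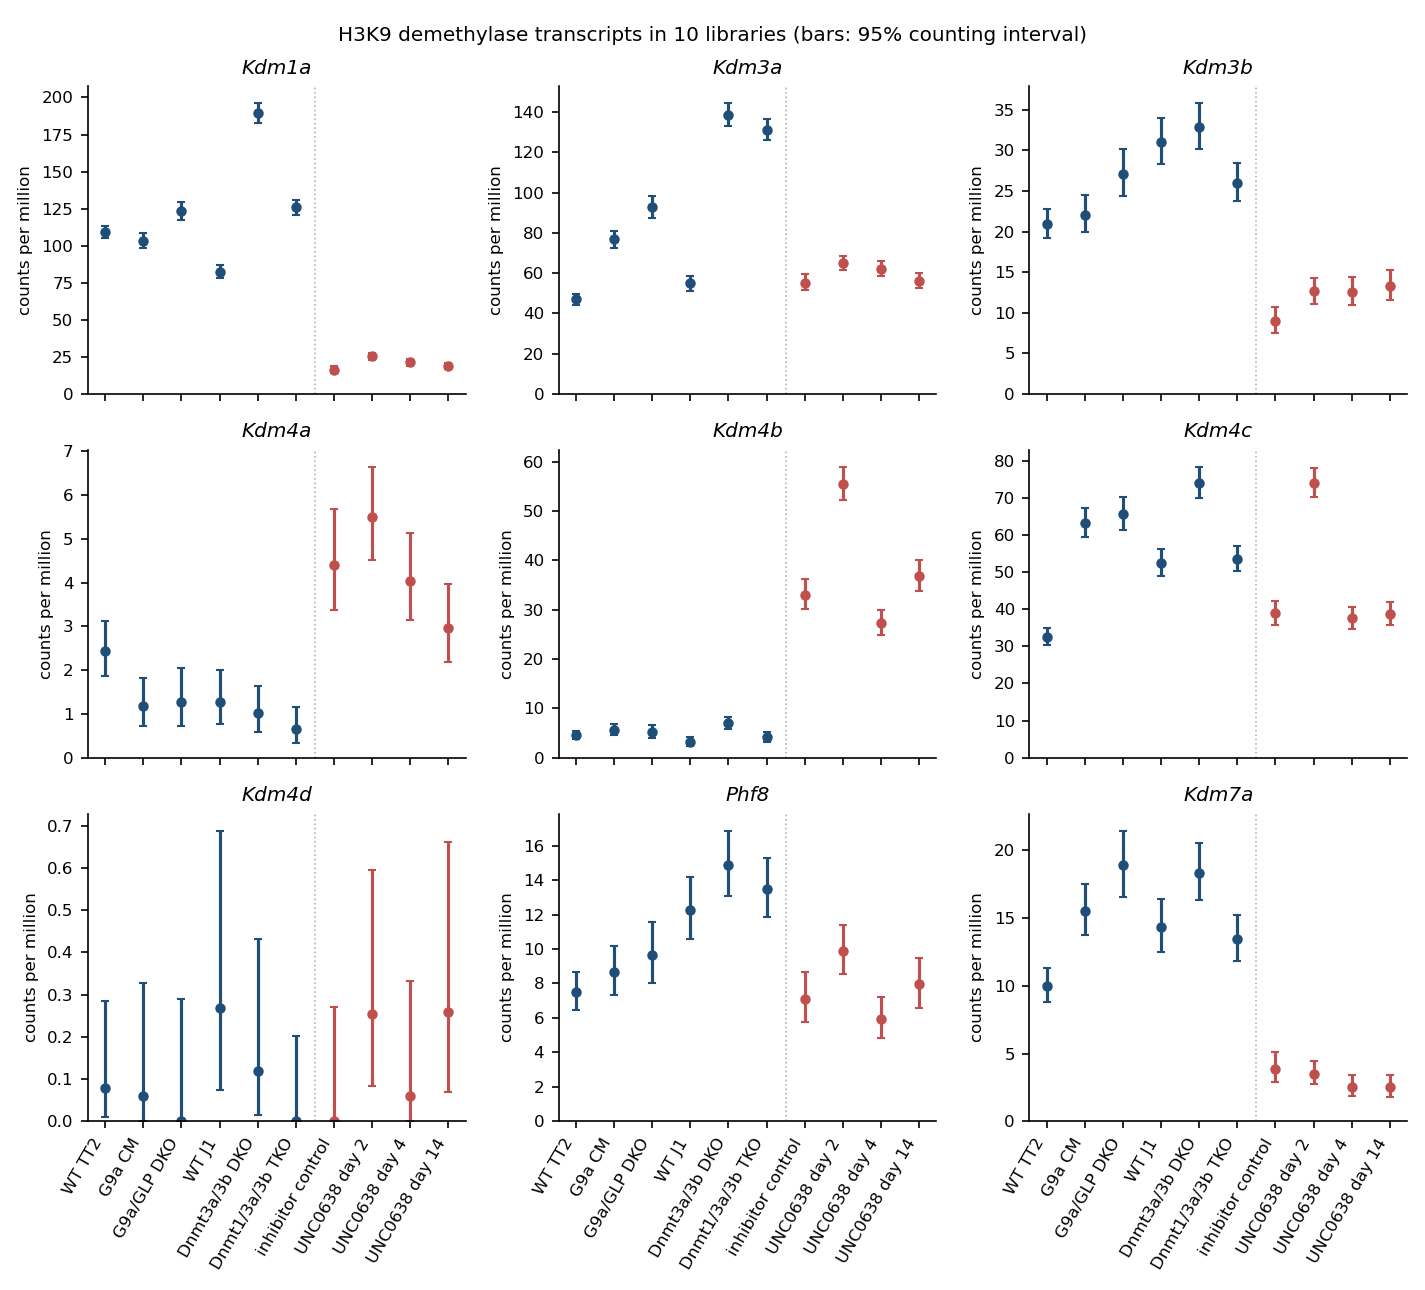
CPM (y axis, from 0, a separate scale per gene) of each gene in the 10 libraries (x axis), with exact 95% counting intervals; blue, the 6 mutant and wild-type lines, red, the 4 inhibitor-series libraries. Kdm1a, Kdm3b and Kdm7a are higher in every blue library than in any red one, Kdm4a and Kdm4b are lower, and Kdm4c peaks at 74.2 CPM in both Dnmt3a/3b DKO and on day 2.

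Kdm1a (LSD1; ENSMUSG00000036940.15, chromosome 4, 136550533 to 136602787, GRCm38.p6) was the most abundant of the family in the mutant and wild-type lines and was highest in the Dnmt3a/3b DKO library. In the J1 strain its CPM was 82.4 in the wild type, 189 in Dnmt3a/3b DKO and 126 in the triple mutant. In the TT2 strain it was 109 in the wild type, 103 in G9a CM and 123 in G9a/GLP DKO. It was 16.3 in the inhibitor control, 25.2 on day 2, 21.2 on day 4 and 18.7 on day 14. The Dnmt3a/3b DKO library stood above the rest and WT J1 was the lowest of the 6 lines. Against WT J1, Kdm1a was called higher in Dnmt3a/3b DKO, 2.30-fold (interval 2.15 to 2.45). Against WT TT2 in place of WT J1 its log2 difference was 0.79, which is no call. In Dnmt1/3a/3b TKO it was 1.53-fold higher (1.42 to 1.64), short of a call, and 1.5-fold below the double mutant (1.43 to 1.59). By CPM neither G9a line departed from WT TT2 by more than 1.13-fold (1.06 to 1.21, G9a/GLP DKO), and by TPM G9a/GLP DKO was 1.35-fold higher.

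The annotated spans of Kdm1a and Luzp1 share 4193 bases, and Smart-seq2 libraries do not keep the strand. RSEM's posterior SD of the Kdm1a count was 0 in every library. Luzp1 stood at 117 CPM in WT TT2, 75.8 in WT J1, and 61.6 and 57.6 in the double and triple Dnmt mutant, so it was lower in both Dnmt mutants, in which Kdm1a was higher. In the inhibitor control, in which Kdm1a was lower than in WT TT2, Luzp1 was lower too, at 46.3 CPM. The part of the shared bases in the Kdm1a counts was not tested. Of the LSD1-CoREST list, which holds the partners and readers of that complex (10 of 11 genes in the tables, all measured), 0 were called higher and 1 lower in Dnmt3a/3b DKO against WT J1. That gene was Rcor3, a CoREST paralog, at 2.45 against 6.24 CPM. In Dnmt1/3a/3b TKO 0 were called higher, and Rcor3 was again called lower (1.97 CPM). The list's median log2 difference was -0.05 in the double and -0.19 in the triple mutant, beside 0.01 and -0.02 for all genes measured.

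Kdm3a (also Jmjd1a; ENSMUSG00000053470.13, chromosome 6, 71588970 to 71632990), which removes mono- and dimethyl H3K9, was higher in all 4 mutant lines than in both wild types. Its CPM was 46.9 in WT TT2 and 54.8 in WT J1, against 76.8 in G9a CM, 92.7 in G9a/GLP DKO, 131 in Dnmt1/3a/3b TKO and 139 in Dnmt3a/3b DKO. The wild-type and mutant values did not overlap, and neither did their TPM. Kdm4c was the other gene of the family in that position (CPM of 32.6 and 52.6 in the wild types, 53.6 to 74.2 in the mutants), although the interval of Dnmt1/3a/3b TKO (50.3 to 57.1) overlapped that of WT J1 (49.0 to 56.4). Of 15151 genes, 12.1% were above both wild types in all 4 mutants and 11.3% below, beside 2 of 9 members above and 1 below (Kdm4a, at 12 to 20 counts in the mutants). On TPM Kdm1a, Kdm3b, Phf8 and Kdm7a were also above both wild types in all 4 mutants, which makes 6 of 9 members above and 0 below, beside 17.7% and 5.69% of the same 15151 genes. Kdm4a overlapped on TPM.

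Kdm3a was called higher in both Dnmt mutants, by 2.53-fold (2.33 to 2.74) in the double and 2.39-fold (2.21 to 2.59) in the triple mutant against WT J1. These comparisons share WT J1, which also stood apart in markers of other cell types. The 6 neural markers summed to 38.5 TPM in the double and 30.8 in the triple mutant against 13.2 in WT J1. Pax6 stood at 12.6 and 5.8 against 0.08 TPM. Of these 6 markers, 3 were called higher and 1 lower in each mutant. The lower one was Ncam1, at 7.77 and 7.39 against 17.4 CPM. The 7 trophoblast markers in the tables summed to 18.9 and 15.1 against 3.78 TPM, with Cdx2 at 0 in all 3 libraries. Their part in the Kdm3a and Kdm1a calls was not tested. With Kdm1a, 2 of the 8 measured members were called in the double mutant, all higher, where 19.1% of 13743 genes were called and 9.23% were called higher. In the triple mutant 1 of 8 was called, where 21.7% of 13924 were called and 11% higher. Of all calls, 48.3% were higher in the double mutant (63.7% with total-count scaling, 73.8% on TPM) and 50.9% in the triple mutant (65.5% and 74.0%). Between the mutants Kdm3a differed by 1.06-fold (0.998 to 1.12; lower in the triple mutant by CPM, 1.02-fold higher by TPM), and 0 members were called where 3.14% of 13461 genes were. In that comparison 57.0% of calls were higher, or 67.8% on TPM. Kdm4b was just outside the rule in Dnmt3a/3b DKO, at 6.93 against 3.09 CPM, 2.25-fold (1.58 to 3.23), a log2 difference of 0.96, and was 1.69-fold lower again in the triple mutant (1.25 to 2.29).

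Several related lists were counted beside these calls. Among other JmjC enzymes that act on other residues (9 measured), 3 were called higher and 0 lower in Dnmt3a/3b DKO: Jmjd6, a lysyl hydroxylase, at 36.2 against 8.39 CPM, Kdm5b, an H3K4 demethylase, at 278 against 128 CPM, and Kdm8 at 1.97 against 0.47 CPM. In Dnmt1/3a/3b TKO 2 were called higher and 0 lower, Jmjd6 at 46.4 CPM and the Y-linked Kdm5d at 2.52 against 0.067 CPM. 0 of the 5 measured among the nearest relatives (Kdm1b, Jmjd1c, Hr, Phf2, Riox1 and Riox2) were called in either mutant. On the opposing side, 2 of 11 H3K9 methyltransferases and cofactors were called higher in both: Ehmt2 (22.4 and 18.1 against 6.98 CPM) and Trim28, the corepressor that brings Setdb1 to repeats (622 and 660 against 217 CPM). Of 16 genes of 2-oxoglutarate metabolism, which make or use the cosubstrate, 0 were called lower in either mutant, and Ogdh was called higher in the triple mutant, at 46.6 against 22.4 CPM.

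Kdm3a is a known hypoxia-inducible gene, and the hypoxia list did not move in the same way in both Dnmt mutants. In Dnmt3a/3b DKO 6 of 15 measured were called higher and 0 lower, with a median log2 difference of 0.61 beside 0.01 for all genes. Slc2a1, the main glucose transporter, stood at 294 against 80.6 CPM, Ankrd37 at 53.6 against 17.9, Bnip3 at 392 against 158 and Ldha at 1746 against 734. In Dnmt1/3a/3b TKO, with Kdm3a at nearly the same level, 2 were called higher and 3 lower, with a median of 0.01 beside -0.02. The part of the hypoxia response in the Kdm3a values was not tested. Of 9 genes described downstream of Kdm3a and Kdm4c or upstream of them, 0 were called higher and 3 lower in both mutants: Tcl1 (299 and 216 against 679 CPM), Tfcp2l1 (81.9 and 53.8 against 241 CPM) and Klf4 (30.6 and 34.4 against 90.6 CPM). These are differences from WT J1, which held the highest CPM of each of the 3 genes among the 6 lines. On TPM Tfcp2l1 stood at 19.6 and 19.4 against 27.7.

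Kdm3b (ENSMUSG00000038773.11, chromosome 18, 34777008 to 34839370), the closest paralog of Kdm3a, did not share its pattern. It ranged from 21.0 to 32.9 CPM over the 6 lines, with WT TT2 lowest and Dnmt3a/3b DKO highest, and from 8.96 to 13.3 CPM in the inhibitor series. In Dnmt3a/3b DKO it was 1.06-fold above WT J1 (0.935 to 1.20). In Dnmt1/3a/3b TKO it was 1.20-fold below (1.05 to 1.36) by CPM and 1.16-fold above by TPM. It is 1 of 2 members with reads that RSEM could not place with certainty, and the posterior SD of its count was at most 5.04 reads.

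**Figure D3:**
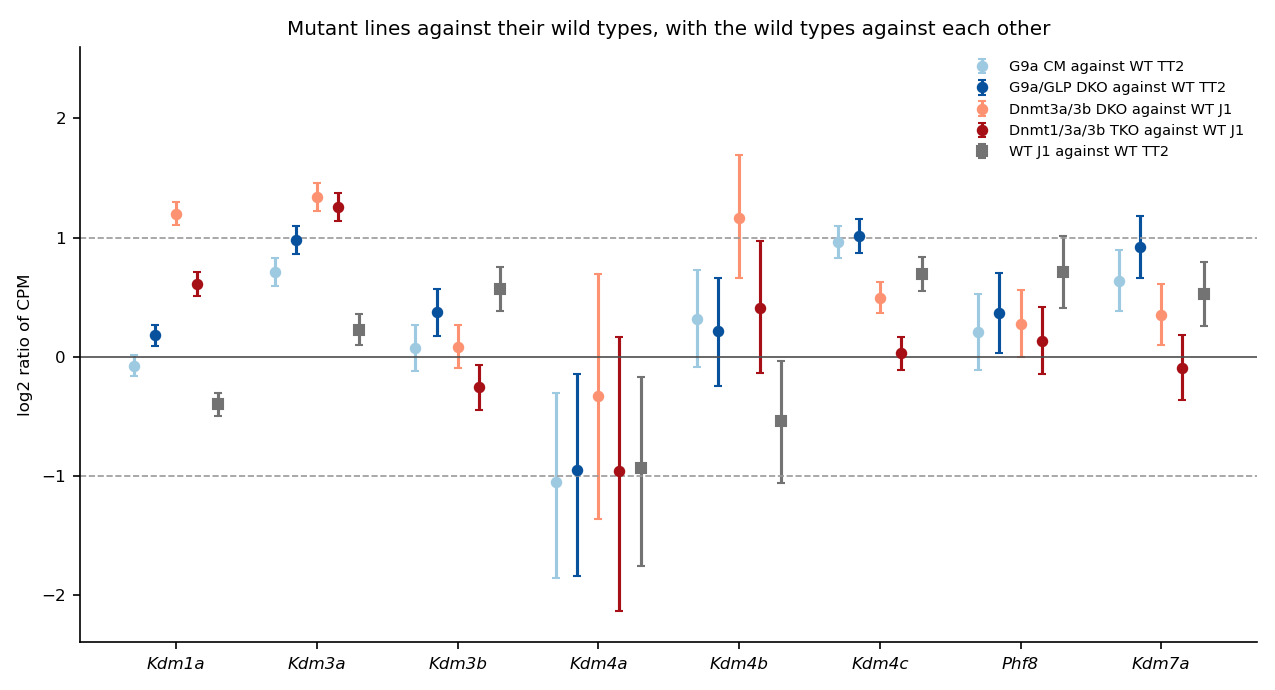
Log2 ratio of CPM (y axis, log scale, no pseudocount) with exact 95% counting intervals for 8 genes (x axis) in each mutant line against its wild type, and in WT J1 against WT TT2 (grey squares); dashed lines mark a log2 ratio of 1 either way, while the call adds 1 CPM first. Kdm3a is above 0 in all 4 mutant comparisons and past 1 in both Dnmt mutants, and Kdm4c and Kdm7a differ between the 2 wild types by 1.62-fold and 1.44-fold.

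In the G9a lines no member was called, and 3 of them came close together. In G9a/GLP DKO against WT TT2, 16.9% of 14027 genes were called and 0 of 8 members. In G9a CM 10.5% of 13504 were called and again 0 of 8. Of all calls, 57.9% were higher in G9a/GLP DKO (70.0% with total-count scaling, 69.1% on TPM) and 51.6% in G9a CM (64.7% on TPM). Kdm4c was 2.02-fold (1.83 to 2.22) above WT TT2 in G9a/GLP DKO and 1.95-fold (1.78 to 2.13) in G9a CM. Kdm3a was 1.98-fold (1.82 to 2.14) and 1.64-fold (1.51 to 1.77) above it, and Kdm7a 1.89-fold (1.58 to 2.27) and 1.56-fold (1.31 to 1.86). The log2 differences in G9a/GLP DKO were 0.99, 0.97 and 0.86, just short of the limit of 1, and DESeq2 size factors, total-count scaling and TPM gave 1, 3 and 2 higher members. Both comparisons share WT TT2, the library with the lowest CPM of Kdm3a, Kdm4c and Kdm7a among the 6 lines.

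The distance between the wild types bears on these folds. WT J1 stood 1.62-fold (1.46 to 1.78) above WT TT2 for Kdm4c, 1.64-fold (1.33 to 2.01) for Phf8, 1.48-fold (1.31 to 1.68) for Kdm3b and 1.44-fold (1.19 to 1.73) for Kdm7a, and 1.32-fold below it for Kdm1a (1.24 to 1.41). On TPM the 4 higher genes differed by 1.22-fold, 1.07-fold, 1.06-fold and 1.08-fold, Kdm1a was 1.66-fold lower, and Kdm3a changed side, from 1.17-fold higher to 1.14-fold lower. No member was called between the wild types, where 23.5% of 13735 genes were. Of those calls 53.3% were higher in WT J1, or 43.2% with total-count scaling and 29.5% on TPM. Between G9a/GLP DKO and G9a CM 0 members were called beside 9.65% of 13869 genes. Kdm4c (1.04-fold, 0.946 to 1.14) differed least, and Kdm1a, Kdm3a, Kdm3b and Kdm7a were 1.20-fold to 1.23-fold higher in G9a/GLP DKO with intervals above 1.

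Of the 9 genes around Kdm3a and Kdm4c, 2 were called higher and 0 lower in G9a/GLP DKO, and 2 higher and 2 lower in G9a CM. Pou5f1, described upstream of both demethylases, stood at 26.8 and 33.3 CPM in the G9a lines against 12.5 in WT TT2, and Zfp57, described as a Kdm3a target, at 130 and 128 against 56.5 CPM. In G9a CM Esrrb (60.8 against 127 CPM) and Zfp42 (920 against 2025 CPM), both naive pluripotency genes, were lower. The hypoxia list had 0 of 15 called higher and 4 lower in G9a/GLP DKO (Pdk1, Bnip3, Adm and Higd1a), in the library in which Kdm3a and Kdm4c were higher than in WT TT2, and 1 higher (Ldha) and 1 lower (Ankrd37) in G9a CM. The relatives (4 measured) and the LSD1-CoREST list (10 measured) had 0 called in either line. The 2-oxoglutarate list had 2 of 16 lower in G9a/GLP DKO (Psat1 and Bcat1) and 1 higher in G9a CM (Bcat2). Ehmt1 was the only one of 11 methyltransferases and cofactors called, lower in G9a/GLP DKO. These companions are named after their values were seen, since no member was called.

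Kdm4c (also Jmjd2c; ENSMUSG00000028397.13, chromosome 4, 74242497 to 74405864), which removes di- and trimethyl H3K9, stood in the G9a lines and on day 2 of the inhibitor well above wild-type TT2 cells. In the TT2 strain its CPM was 32.6 in the wild type, 63.4 in G9a CM and 65.7 in G9a/GLP DKO. In the J1 strain it was 52.6 in the wild type, 74.2 in the double and 53.6 in the triple mutant. In the inhibitor series it was 38.9 in the control, 74.2 on day 2, 37.6 on day 4 and 38.7 on day 14. WT TT2, the inhibitor control, day 4 and day 14 were the 4 lowest libraries and lay within 32.6 to 38.9 CPM. None of the differences from their own control was a call.

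Under UNC0638, 0 of the 8 measured members were called against the inhibitor control at any time, where 4.96% of 13294 genes were called on day 2, 2.62% of 13112 on day 4 and 3.45% of 13269 on day 14. Day 2 held the highest values of Kdm4b and Kdm4c in this series. Kdm4c was 1.91-fold higher (1.72 to 2.11), Kdm4b 1.68-fold (1.5 to 1.88) and Kdm1a 1.55-fold (1.32 to 1.82), and Kdm3b, Phf8 and Kdm3a were 1.41-fold, 1.39-fold and 1.17-fold higher with intervals above 1. Of all calls on day 2, 62.9% were higher, against 51.6% with DESeq2 size factors, 83.1% with total-count scaling and 81.0% on TPM. With total-count scaling or TPM, Kdm4c alone was called higher.

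On day 4 Kdm4b and Kdm4c stood near the control. Against day 2, Kdm4b was 2.03-fold lower (1.82 to 2.27), Kdm4c 1.98-fold lower (1.80 to 2.17) and Phf8 1.66-fold lower (1.30 to 2.14). The log2 differences of Kdm4c and Phf8 were -0.96 and -0.65 and that of Kdm4b fell just short of the limit, so 0 members were called beside 4.31% of 13324 genes, although total-count scaling and TPM each called 2 lower. Of all calls here 44.4% were higher, or 57.4% with DESeq2 size factors, 20.2% with total-count scaling and 21.6% on TPM. Against the control, Kdm4c differed by 1.04-fold on day 4 (0.922 to 1.16) and 1.01-fold on day 14 (0.892 to 1.13), on both days lower by CPM. On day 14 it was 1.10-fold higher on TPM. Between day 14 and day 4, 0 members were called beside 1.9% of 13259 genes, and Kdm4b was 1.35-fold higher on day 14 (1.19 to 1.53).

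Kdm3b and Kdm3a kept a steadier distance. Kdm3b was 1.41-fold (1.13 to 1.76), 1.41-fold (1.12 to 1.77) and 1.49-fold (1.18 to 1.87) above the control on days 2, 4 and 14. Kdm3a stayed between 55.2 and 64.8 CPM over the series, the narrowest range of the measured members. Kdm7a was 1.11-fold below the control on day 2 by CPM (0.760 to 1.61) and 1.10-fold above it by TPM. It was 1.52-fold below the control on day 4 (0.9997 to 2.33) and 1.55-fold on day 14 (1.003 to 2.40), at 39 to 53 counts on those days and in the control. The control's own collection day is not in the labels, so time in culture and drug cannot be told apart.

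**Figure D4:**
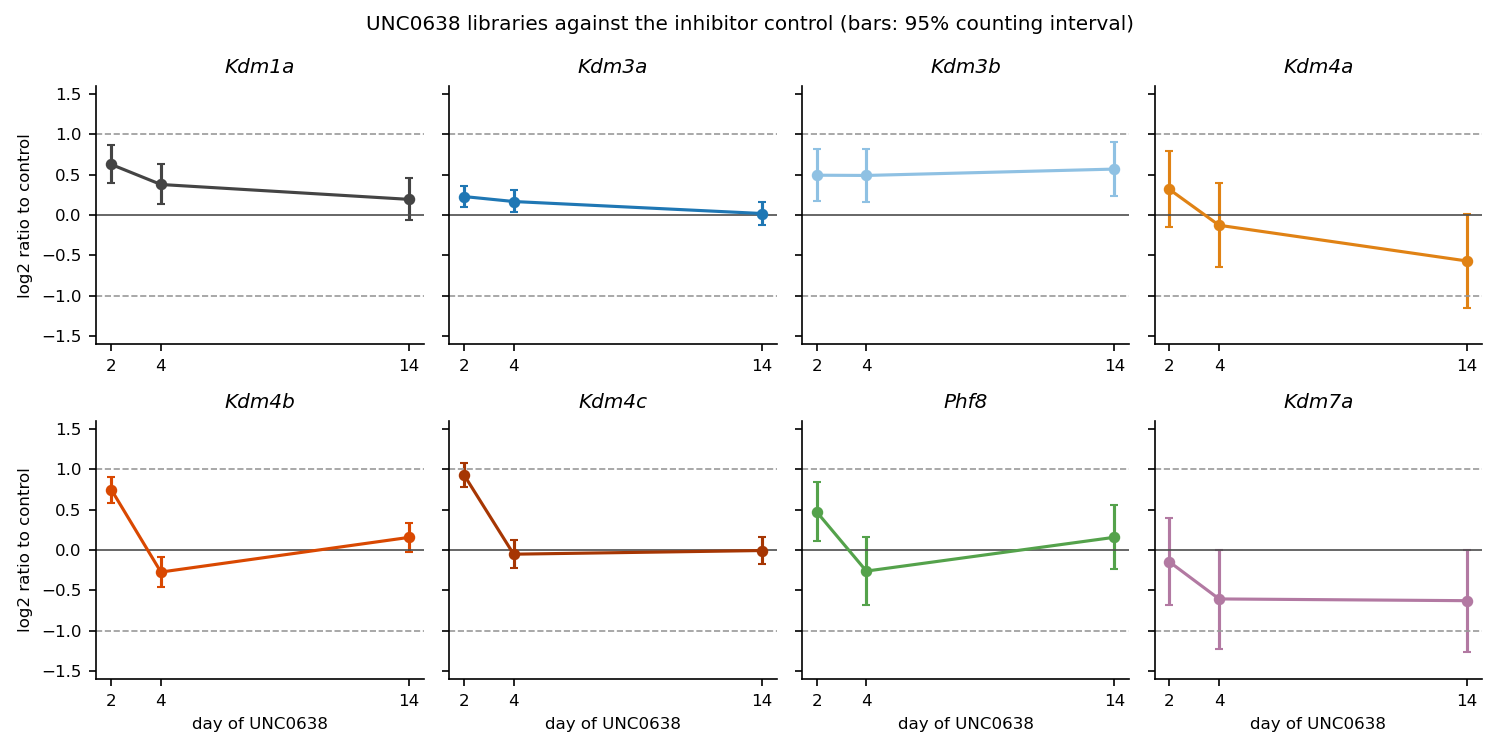
Log2 ratio of CPM to the inhibitor control (y axis, log scale, no pseudocount) against the day of UNC0638 (x axis, 2, 4 and 14) for 8 genes, 1 library per point with its exact 95% counting interval; dashed lines mark a log2 ratio of 1 either way. Kdm4b and Kdm4c are high on day 2 and near or below 0 on day 4, whereas Kdm3b is above 0 on all 3 days.

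Genes induced by low oxygen stood high in the same library. On day 2, 7 of 14 measured genes of the hypoxia list were called higher and 0 lower, with a median log2 difference of 1.02 beside 0.01 for all genes. Bnip3, a mitophagy receptor, stood at 251 against 49.1 CPM and P4ha1, a collagen prolyl hydroxylase subunit, at 60.3 against 18.7 CPM (these and the other hypoxia genes named for this series were chosen after their values were seen). On day 4 against day 2, 5 of 14 were called lower and 0 higher (Bnip3, Ankrd37, Egln3, Adm and P4ha1), with a median of -0.81. On day 4 against the control 0 were called, with a median of -0.20, and on day 14 Adm alone was called higher, with a median of 0.37. The hypoxia list was high in the library in which Kdm4b and Kdm4c were high. Kdm3a, known from the same response, stood at 55.2 CPM in the control, 64.8 on day 2 and 62.1 on day 4. Its TPM was 19.7 in the control, 26.6 on day 2 and 19.9 on day 4. The part of the hypoxia response in the Kdm3a and Kdm4 values was not tested. The relatives list had 1 of 6 called lower on day 2, Riox1 (8.65 against 63.5 CPM), and the methyltransferase list 1 of 11 lower, Suv39h2, which writes trimethyl H3K9 (8.65 against 34.9 CPM). Both were named after their values were seen. The LSD1-CoREST, other-residue and 2-oxoglutarate lists had 0 called at any of the 3 times, and so had the list of genes around Kdm3a and Kdm4c.

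Kdm4b (ENSMUSG00000024201.12, chromosome 17, 56325970 to 56403774) had the widest range of the 8 measured members over the 10 libraries. In the TT2 strain its CPM was 4.48 in the wild type, 5.60 in G9a CM and 5.19 in G9a/GLP DKO. In the J1 strain it was 3.09 in the wild type, 6.93 in the double and 4.11 in the triple mutant. It was 33.1 in the inhibitor control, 55.5 on day 2, 27.3 on day 4 and 36.8 on day 14. No inhibitor-series library overlapped with the 6 lines. The same held for Kdm4a (0.66 to 2.44 CPM in the 6 lines, 2.97 to 5.5 in the inhibitor series), and the reverse for Kdm1a (82.4 to 189 against 16.3 to 25.2), Kdm3b (21.0 to 32.9 against 8.96 to 13.3) and Kdm7a (9.99 to 18.9 against 2.52 to 3.89). These 5 genes had the same order on TPM, and Kdm3a, Kdm4c, Kdm4d and Phf8 overlapped between the sets. Of 15911 genes, 23.5% were higher in all 6 lines than in all 4 inhibitor-series libraries and 27% lower, so 3 and 2 of 9 are near the background.

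The inhibitor control is itself wild-type TT2, so its distance from WT TT2 holds no mutation. Here 4 of 8 members were called, beside 47.2% of 13667 genes (25.2% higher and 22.0% lower). Kdm4b was 7.37-fold higher (5.99 to 9.14). Kdm1a was 6.68-fold lower (5.82 to 7.69), Kdm7a 2.57-fold lower (1.90 to 3.52) and Kdm3b 2.34-fold lower (1.92 to 2.87). Kdm4a was 1.81-fold higher (1.25 to 2.62), and Kdm3a and Kdm4c were 1.18-fold and 1.20-fold higher, all short of a call. Phf8 stood at 7.12 and 7.51 CPM. Of all calls 53.4% were higher, or 64.8% on TPM, where Kdm1a alone remained of the 3 lower calls. DMSO and whatever else parted the sets of libraries cannot be told apart.

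Other values moved between these 2 libraries and stand beside those calls, and their part in them was not tested. The effective length that RSEM used for Kdm4b was 3078 bases in the inhibitor control and 2672 in WT TT2. Genes of chromosome 17, where Kdm4b lies, had a median log2 difference of 0.65 (158 genes) and those of the X chromosome -0.64 (281 genes), beside 0.06 for all. Pou5f1, a defining embryonic stem cell marker, stood at 557 TPM in the inhibitor control and 11.9 in WT TT2. The 6 neural markers summed to 118 to 142 TPM in the inhibitor series and 13.2 to 39.2 in the 6 lines. Of the 132 TPM in the inhibitor control, Tubb3 alone held 124. Against WT TT2, 2 of 5 measured neural markers were called higher there and 1 lower (Map2, 1.10 against 4.33 CPM). The 7 trophoblast markers in the tables summed to 42.1 to 86.5 TPM in the inhibitor series and 3.78 to 27.3 in the 6 lines. Cdx2 was at 0 in all 6 lines and on day 4. Of the 86.0 TPM in the inhibitor control, Tfap2c held 43.8 and Krt19 39.5. Against WT TT2, 3 of 5 measured trophoblast markers were called higher there and 0 lower. The 6 primitive endoderm markers summed to 1.04 to 11.4 TPM over all libraries. The 7 genes of the 2-cell-like state summed to 0.25 to 87.2 TPM in the 6 lines and 0.81 to 297 TPM in the inhibitor series, with day 14 the highest.

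The partners of Kdm1a parted between the same libraries without 1 direction. Of 10 measured LSD1-CoREST genes 4 were called higher and 3 lower, with Hmg20b at 30.9 against 1.93 CPM, Gse1 at 11.2 against 2.95, Rcor1, the founding CoREST scaffold, at 4.04 against 25.2 and Zmym2 at 22.6 against 62.8. Among 6 relatives of the members, 2 were called higher and 1 lower, with Jmjd1c, a further Kdm3 paralog, at 16.9 against 98.6 CPM, Riox1 at 63.5 against 11.2 and Hr at 1.84 against 0.197. Among 9 enzymes for other residues 3 were higher and 1 lower, led by Kdm2b at 55.9 against 8.46 CPM. Of 11 H3K9 methyltransferases and cofactors 2 were higher and 3 lower, and Ehmt2 was the most different, at 77.2 against 14.6 CPM. Of 16 genes of 2-oxoglutarate metabolism 6 were called higher (median 0.72 beside -0.01 for all genes), and Got2 stood at 597 against 51.1 CPM, Bcat2 at 484 against 77.6 and Ogdh at 344 against 54.9. The hypoxia list had 4 of 15 higher and 5 lower, led by Slc2a1 at 1701 against 181 CPM. Of the 9 genes around Kdm3a and Kdm4c 2 were higher and 3 lower, with Zfp57 at 152 against 56.5 CPM, Klf4 at 10.5 against 48.8 and Sox2 at 33.9 against 91.8, beside the Pou5f1 values above.

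Kdm4a (ENSMUSG00000033326.15, chromosome 4, 118136957 to 118180090), the founding member of the JmjC trimethyl demethylases, was scarce. Its counts ran from 12 in Dnmt1/3a/3b TKO to 62 in WT TT2 in the 6 lines, and from 46 to 108 in the inhibitor series. It was 2.07-fold lower in G9a CM (1.23 to 3.62) and 1.94-fold lower in G9a/GLP DKO (1.10 to 3.60) than in WT TT2, and WT J1 was 1.91-fold lower than WT TT2 as well (1.13 to 3.39). These 3 libraries lay at 1.18 to 1.28 CPM, and their counting intervals overlapped.

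Kdm4d (ENSMUSG00000053914.9, chromosome 9, 14462548 to 14500522), which lacks the reader domains of its paralogs, had 0 to 5 counts per library. It had 0 counts in G9a/GLP DKO, Dnmt1/3a/3b TKO and the inhibitor control. The upper ends of the exact intervals there were 0.290, 0.202 and 0.271 CPM. The highest values were 4 counts in WT J1 and on day 14 and 5 on day 2 (0.15 TPM). No difference was detectable at this depth.

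Phf8 (ENSMUSG00000041229.15, chromosome X, 151520641 to 151633859) overlapped between the sets of libraries. It ran from 7.51 CPM in WT TT2 to 14.9 in Dnmt3a/3b DKO in the 6 lines, and from 5.94 on day 4 to 9.87 on day 2 in the inhibitor series. Its effective length was 2624 to 2995 bases in the 6 lines and 2812 to 3712 in the inhibitor series, which enters its TPM. Kdm7a (ENSMUSG00000042599.8, chromosome 6, 39136620 to 39206773), its paralog, was 9.99 CPM in the TT2 wild type, 15.6 in G9a CM and 18.9 in G9a/GLP DKO, and 14.4 in the J1 wild type, 18.3 in the double and 13.5 in the triple mutant. It was 3.89 in the inhibitor control, then 3.51, 2.56 and 2.52 on days 2, 4 and 14. The 6 lines were all above the inhibitor series, and WT TT2 was the lowest of them. Kdm7a was measured on a long transcript (effective length 9291 to 9416 bases).

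For the 4 members with the widest range, the 8011 other protein-coding genes of at least 10 CPM in some library were ranked by Pearson's r of log2(CPM + 1) over the 10 libraries. Trip12 (0.995), Rmnd5a (0.993) and Rock2 (0.993) were the most like Kdm1a. Arhgap27 (0.994), Fbln1 (0.993) and Inppl1 (0.991) were the most like Kdm4b, Foxn2 (0.993), Mark3 (0.983) and Hsf2 (0.982) the most like Kdm7a, and Nsl1 (0.989), Rassf1 (0.976) and G6pc3 (0.969) the most like Kdm4a. The 10 points share their libraries and fall into the 2 sets, so r is a description only. Among the members, Kdm1a and Kdm4b had r = -0.90 over the 10 libraries and 0.81 over the 6 lines. Kdm4c and Kdm7a had r = 0.96 over the 6 lines and 0.51 over the 10.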

How the data were processed

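RNA from 10 libraries of mouse embryonic stem cells was sequenced after Smart-seq2 preparation, per the labels' protocols. The authors aligned with STAR 2.5.3a and quantified with RSEM on GRCm38 (mm10), per the submitters' processing notes, and deposited expected counts, TPM, posterior counts and effective lengths per gene, per the file headers. Expected counts were rounded. Effective library sizes came from TMM (edgeR 4.0.16, R 4.3.3) over genes of at least 1 CPM in any library. Gene IDs took symbols from a table that matched 93.3% of them. The size rule was run on every gene, checked on simulated counts, and 1 was added to CPM before log2. The 9 genes, the related lists and the alternatives were chosen with earlier results of these data known. All members are named. Companion genes are named where a member was also called (at most 4 per list by size), and exceptions are stated. The alternatives were DESeq2 1.42.0 size factors, TMM over all genes (added after seeing the data), total counts, TPM, no minimum, a pseudocount of 0.5, a limit of 0.58 and posterior counts, besides 9 swaps of the control. Genes of the lists that are not in the tables were not analysed here, and some genes that were called are not reported here.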

Additional observations from a re-analysis of the deposited data

How the results depend on the processing

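No call reversed. With 1 library per group no library could be left out, and depth limits Kdm4a and Kdm4d most. No paired analysis was possible because each RNA group has 1 library. Of 226 recounts of members called higher or lower, 194 stayed within 1.5 times and 32 moved. TMM over all genes, no minimum CPM and posterior mean counts moved 0 of 26 each. In G9a/GLP DKO against WT TT2, where 0 were called, members called higher were 1 with DESeq2 size factors, 3 with total counts, 2 on TPM and 1 with a pseudocount of 0.5. On day 2 against the inhibitor control, 1 was higher with total counts and 1 on TPM. On day 4 against day 2, 2 were lower with total counts, 2 on TPM and 1 with a pseudocount of 0.5. In the inhibitor control against WT TT2, 1 in place of 3 was lower on TPM.

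A log2 limit of 0.58 gave 3 higher and 1 lower in G9a/GLP DKO and in G9a CM against WT TT2, 2 higher in Dnmt1/3a/3b TKO against WT J1, 2 lower in the triple against the double mutant, 3 higher on day 2, 3 lower on day 4 against day 2, 2 higher in the inhibitor control against WT TT2, and 2 higher and 1 lower in WT J1 against WT TT2. With the inhibitor control as control, 3 were higher and 2 lower in both G9a lines. With WT TT2 as control, 1 was lower in Dnmt1/3a/3b TKO, 2 higher and 2 lower on day 2, and 1 higher and 2 lower on days 4 and 14. The Dnmt1/3a/3b TKO swap crosses strains, and the other swaps named here cross the sets of libraries. The cause was not tested.

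Total counts or TPM moved the median of all genes by 0.14 in G9a/GLP DKO against WT TT2, 0.17 to 0.28 in the Dnmt mutants against WT J1, 0.20 to 0.22 on day 2, -0.19 to -0.20 on day 4 against day 2, 0.25 (TPM) in the inhibitor control against WT TT2 and -0.11 to -0.29 in WT J1 against WT TT2. Kdm3a in the Dnmt mutants, with log2 differences of 1.32 and 1.24, and Kdm4b and Kdm1a in the inhibitor control kept their calls under the scalings tried.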

Other observations

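The Y-linked relatives of the members differed between clones of the same strain. Uty, a paralog of the H3K27 demethylase Kdm6a, had 25.6 CPM in G9a/GLP DKO, 4.17 in the wild type and 0 in G9a CM, and Kdm5d had 5.67, 0.039 and 0 CPM. In WT J1, Uty stood at 22.6 CPM. These genes were chosen after their values were seen.

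Riox1, a JmjC histidyl hydroxylase of the nucleolus, was the relative called in the inhibitor series, at 63.5 CPM in the control, 8.65 on day 2 and 69.5 on day 4. Its day 2 value lay opposite to Kdm4b and Kdm4c, and Suv39h2 followed the same course at 34.9, 8.65 and 32.1 CPM. Both were chosen after their values were seen.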
